A study of Mus musculus with 16 samples.

Results

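The 50 genes described here encode the machinery that copies DNA in S phase (24 genes, the S-phase members) and the machinery that separates the copies in mitosis (26 genes, the mitosis members). They were chosen by name from the genes listed in the deposited table, with earlier results of these data known, so all 50 are listed. The 13015 genes of that table had passed the authors' expression cutoff in at least 1 sample, and no further threshold on measured values was set. The RNA came from mouse NIH/3T3 fibroblasts, an established line, that had received either an siRNA targeting Apc (siAPC) or a control one (siControl). In every group the cells were starved of serum, plated for 2 h on a filter with 3.0 µm pores, given lysophosphatidic acid (LPA) from below for 1 h to draw protrusions through the pores, and fixed in 0.3% paraformaldehyde for 10 min. Protrusions (Ps) were collected from the lower side of the filter and cell bodies (CB) from the upper side, so that 2 siRNAs and 2 fractions made 4 groups of 4 libraries. The siRNA lowers Apc RNA without removing it, and all cells are of 1 line. Values are log2 CPM, the log2 of a gene's read count scaled by the authors to a common library size, and a difference of 1 on this scale is a doubling. Gene positions are those of GENCODE M21 on mouse build mm10.

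Apc encodes the tumor suppressor adenomatous polyposis coli, a scaffold of the complex that destroys beta-catenin and a protein that binds microtubules. It is not a part of the anaphase-promoting complex, whose cofactors are among the members. Serum-starved fibroblasts largely leave the cell cycle, and cells that re-enter it first raise the RNAs for origin licensing and DNA synthesis, under the control of E2F transcription factors, and later the RNAs for mitosis, under the control of the DREAM complex, B-Myb and FoxM1. The licensing factors load the MCM2-7 helicase on origins, polymerases copy the opened strands, and mitotic kinases, the spindle checkpoint and the anaphase-promoting complex then time the separation of chromosomes. In bulk RNA a higher share of cells in the cycle and more of an RNA in each cell cannot be told apart.

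Apc itself checked the labels. It measured 2.13, 2.59, 3.54 and 2.17 in replicates 1 to 4 of siControl CB and 0.54, 1.42, 1.02 and 0.75 in siAPC CB, a difference of -1.67 (SE 0.25, adjusted p = 0.000142). In Ps the siControl libraries held 3.52, 3.73, 3.29 and 3.56 and the siAPC libraries 1.63, 1.90, 1.87 and 1.33, a difference of -1.84 (SE 0.25, adjusted p = 3.11e-05). Every siAPC library lay below every siControl library of its fraction, at 0.313 of the siControl level in CB and 0.279 in Ps. Reads in listed genes ranged from 13466225 to 20296087 per library, and 3 reads, taken as the smallest detectable number, stood at -2.73 to -1.80 depending on the library. Of the members, 45 exceeded 0.5 CPM of listed reads in all 16 libraries and 42 had a mean log2 CPM of at least 1, and 1, Ttk, exceeded 0.5 CPM in siAPC libraries only. The authors kept genes that passed an expression cutoff in at least 1 sample. At 0.5 CPM of listed reads, such a cutoff keeps Ttk only through the group where it is high. Its differences are therefore given as a description, without a p. Fibroblast markers were high in every library (Col1a1 from 11.96 to 14.00, Vim from 12.02 to 13.08), although Thy1 stayed between -3.49 and -0.22, near the level of 3 reads. Pdgfrb stood higher in siAPC, at 9.258 to 9.474 against 8.272 to 8.374 in CB and 8.098 to 8.475 against 6.803 to 7.264 in Ps. Fn1, Col1a1 and Col1a2 were also apart and higher in siAPC in both fractions, while Col3a1, Vim, S100a4 and Thy1 overlapped. The part of these markers in the results was not tested. Of 8 markers of other cell types, 4 were listed, the epithelial Krt8 (2.49 to 3.08) and Cdh1 (0.57 to 1.57), the macrophage marker Cd68 (1.84 to 2.68) and the endothelial Pecam1 (-4.83 to -0.43), and Epcam, Krt18, Ptprc and Cdh5 were not, and their part in the results was not tested. In each group 1 library fell with GC content against the other 3 (rank correlation over 9878 genes from -0.66 to -0.54). These were siControl CB replicate 3, siControl Ps replicate 2, siAPC CB replicate 2 and siAPC Ps replicate 2, and counts without these 4 libraries are given beside the main ones. They are called the libraries with a GC trend below. Other libraries rose with GC content against the rest of their group, up to 0.541 in siAPC CB replicate 3 and 0.516 in siAPC Ps replicate 4, and were kept. Whether trends remain among the kept libraries was not tested.

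The promoters of the members were searched because the S-phase and mitosis members are known for different control elements. RefSeq promoters of mouse build GRCm38.p6, from 250 bases before to 50 bases after each start site, were at hand for 41 of the 50 members (46 promoters). The E2F motif was searched as TTTCCCGC, TTTGGCGC, TTTGCCGC or TTTCGCGC, the CHR element as TTTGAA or TTCGAA and the CCAAT box as CCAAT, each on both strands. An E2F motif stood in 34.8% of the S-phase promoters, 4.35% of the mitosis promoters and 2.26% of all 32851 promoters of the same length. A CHR stood in 13.0%, 73.9% and 19.2% of them, a CCAAT box in 52.2%, 82.6% and 37.4%, and a CHR together with a CCAAT box in 8.70%, 69.6% and 7.52%. Among promoters of listed genes these motifs stood in 3.86% (E2F), 13.7% (CHR), 38.2% (CCAAT) and 5.70% (CHR with CCAAT). E2F letters were thus most frequent in the S-phase promoters and CHR letters in the mitosis promoters. A match describes letters in a window, not a bound site.

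Mitosis members with some of the largest siRNA differences are shown first, each read 5′ to 3′ on the strand of its gene with matches in capitals (ATTGG is CCAAT and TTCAAA is TTTGAA on the other strand). Prc1, Cenpa, Bub1 and Ttk, a microtubule bundler, the centromeric histone H3 variant and a pair of checkpoint kinases, each carried both CCAAT and CHR letters close to the start site (chr7:80294408-80294457, chr5:30666771-30666913, chr2:127831834-127831933 and chr9:83834618-83834707; Bub1 on the minus strand).
Prc1: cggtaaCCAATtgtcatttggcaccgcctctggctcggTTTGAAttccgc
Cenpa: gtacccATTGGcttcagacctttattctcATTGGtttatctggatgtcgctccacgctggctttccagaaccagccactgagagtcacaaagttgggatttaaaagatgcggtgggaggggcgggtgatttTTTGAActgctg
Bub1: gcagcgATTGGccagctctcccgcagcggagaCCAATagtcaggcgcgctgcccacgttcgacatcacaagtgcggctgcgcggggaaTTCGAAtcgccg
Ttk: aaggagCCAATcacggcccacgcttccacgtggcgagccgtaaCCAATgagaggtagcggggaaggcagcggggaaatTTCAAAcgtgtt
The stretch of Top2a, the topoisomerase that untangles replicated chromosomes, held 6 CCAAT and 4 CHR matches (chr11:99024201-99024422, minus strand), and that of Cenpe, a centromeric kinesin, held 1 CCAAT box and no CHR (chr3:135212545-135212561).
Top2a: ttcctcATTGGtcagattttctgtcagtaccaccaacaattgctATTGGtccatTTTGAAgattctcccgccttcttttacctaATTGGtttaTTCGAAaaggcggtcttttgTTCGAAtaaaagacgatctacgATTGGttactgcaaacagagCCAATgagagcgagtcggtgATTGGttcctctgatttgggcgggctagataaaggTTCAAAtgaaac
Cenpe: cgccacCCAATccgctg
In Plk1 a CCAAT box began at position -14 from the start site and a CHR at position 30, and in Bub1b a CCAAT box and a pair of CHR matches were found, while the Nusap1 window held none of these letters.

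S-phase members with small but called differences are shown next. They were picked by the size of the difference, and whether motifs relate to that size was not tested. Mcm3, Mcm5 and Mcm7 also held E2F matches and were called between siRNAs in both fractions. Ccnb2 and Mki67 held both CHR and CCAAT letters and were called in neither. Mcm6, a helicase subunit, held 3 E2F matches, of which the first pair overlap, and a pair of CCAAT boxes (chr1:128359709-128359821, minus strand). Lig1, the DNA ligase of replication, and Cdt1, a licensing factor, each held 1 E2F match just after the start site (chr7:13278846-13278865 and chr8:122568041-122568060, plus strand). Mcm2 held a CHR and a CCAAT box (chr6:88898839-88898961) and Fen1 a CHR alone (chr19:10204506-10204523), both on the minus strand and both without an E2F match, and the E2f1 and Ccne1 windows held no match.
Mcm6: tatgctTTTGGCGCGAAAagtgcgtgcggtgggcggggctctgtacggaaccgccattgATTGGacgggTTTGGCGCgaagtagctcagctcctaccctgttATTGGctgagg
Lig1: aagtgcGCGCGAAAtctgtg
Cdt1: taccttTTTGGCGCcatggc
Mcm2: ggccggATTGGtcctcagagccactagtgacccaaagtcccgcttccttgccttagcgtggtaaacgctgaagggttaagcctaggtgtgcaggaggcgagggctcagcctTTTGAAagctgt
Fen1: aaggttTTCAAAgtgcac

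The first comparison asked what lowering Apc does to these RNAs within each fraction. In CB, 34 of 50 members were higher in siAPC at an adjusted limma p below 0.05 and 0 were lower, against 7.52% of all genes higher and 5.87% lower. In Ps, 38 members were higher and 0 lower, against 10.7% and 11.2% of all genes. The Ps counts in this paragraph include Ttk, which exceeds 0.5 CPM of listed reads only in siAPC libraries and is otherwise described without a p. Later counts of members, those with libraries left out or rescaled among them, also include Ttk wherever it passes. The median difference over the members was 0.67 in CB (1.59-fold) and 0.74 in Ps (1.67-fold), beside medians over all genes of -0.04 and -0.02, and 49 of 50 members were above 0 in each fraction. The mitosis members had larger medians than the S-phase members (a difference that was not tested), 0.85 (CB) and 1.04 (Ps) against 0.47 and 0.53, and with 20 of 26 (CB) and 23 of 26 (Ps) called against 14 of 24 and 15 of 24. At an unadjusted p below 0.05 CB had 41 higher and 0 lower members, against 12.6% and 13.9% of all genes, and Ps 42 and 0, against 15.3% and 17.8%. Limma-voom with precision weights on the recovered reads called 37 higher and 0 lower in each fraction. Without the 4 libraries with a GC trend there were 33 calls in CB and 43 in Ps. When libraries were scaled to their total listed reads, 37 members were higher in CB and 41 in Ps and 0 were lower, while over all genes in Ps the median moved to 0.14 and the calls to 2943 higher and 550 lower, from 1393 and 1464. In CB the calls over all genes became 1094 higher and 666 lower, from 979 and 764.

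The groups of libraries often did not overlap at all. In CB every siAPC library lay above every siControl library for 35 members, and the reverse held for 0, against 11.1% and 9.73% of all genes. In Ps this was so for 33 members, Ttk among them, and the reverse held for 0, against 10.9% and 11.6%. Summed over the members, siControl CB held 932, 966, 754 and 765 CPM of listed reads in replicates 1 to 4 and siAPC CB held 1281, 1277, 1356 and 1527. In Ps the sums were 669, 808, 610 and 616 in siControl and 1085, 1114, 1229 and 1378 in siAPC. The sums of the siRNA groups were fully apart in both fractions, and within siControl replicates 1 and 2 stood above replicates 3 and 4 in both fractions. Within siAPC the order was the other way, with replicates 3 and 4 above replicates 1 and 2 in both fractions. The siRNA difference in these sums was thus smaller between libraries numbered 1 and 2 than between those numbered 3 and 4. Of the 34 calls in CB and 38 in Ps, 31 were shared, which is 31 of 34 in CB and 31 of 38 in Ps. Lig1, Brca1 and Cenpu were called in CB only, and Cdt1, Gmnn, Ccne1, Bub1, Cenpe and Anln in Ps only. Ttk, which the 38 Ps calls also include, is given as a description. The interaction test below called none of these members as different between the fractions. It called 0% of all genes higher and 0.0231% lower, so the absence of calls says little about these members. Across the 50 members the CB and Ps differences followed each other (Spearman's rho = 0.674, Pearson's r = 0.576, across genes, in libraries from separate fractions).

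**Figure D1:**
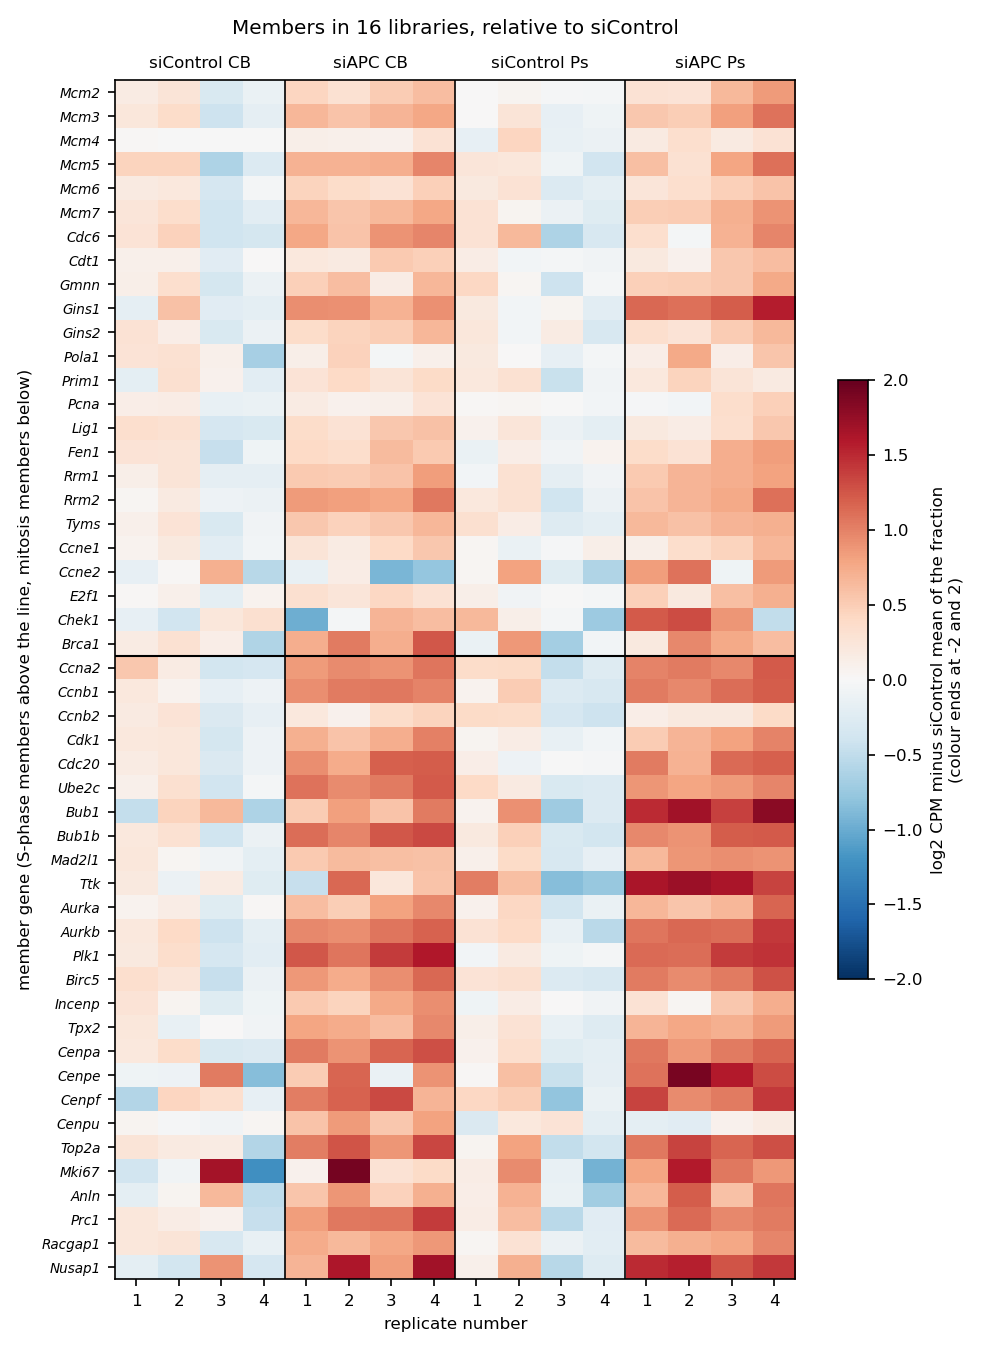
Heat map of the 50 members (rows, S-phase members above the line) in the 16 libraries (columns, by group and replicate number), coloured by log2 CPM minus the siControl mean of the same fraction. Red covers most of both siAPC blocks, most deeply in the mitosis rows.

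**Figure D2:**
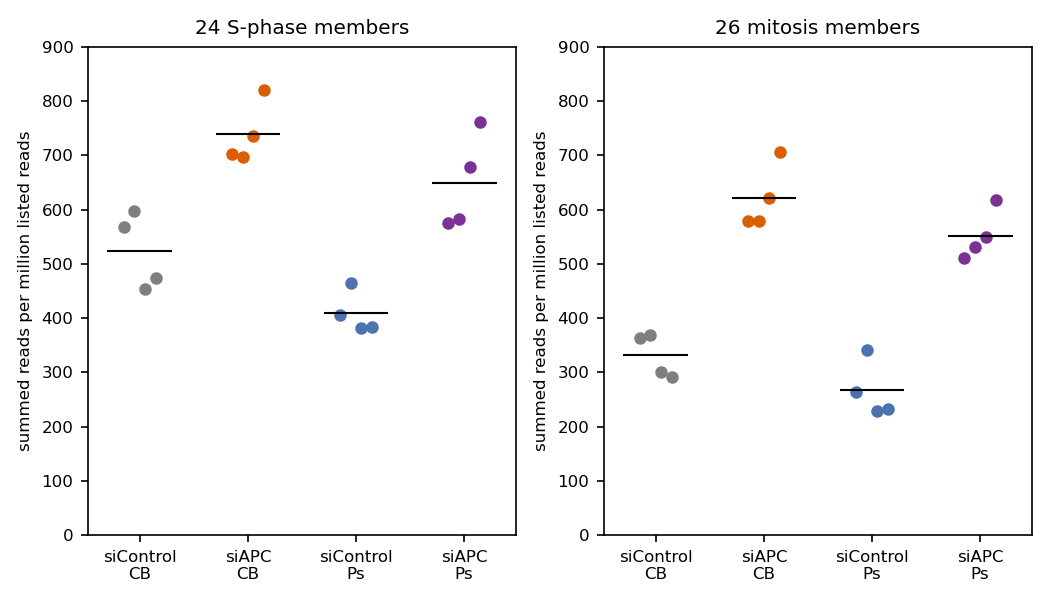
Reads summed over the 24 S-phase members and the 26 mitosis members, in CPM of listed reads (vertical axis, from 0), 1 point per library, with the mean of each group as a line. The mitosis sums run from 229 to 368 in siControl and from 510 to 707 in siAPC, and the S-phase sums from 381 to 598 in siControl and from 575 to 820 in siAPC.

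The counts leaned on single libraries mainly among the S-phase members. Without siControl CB replicate 3 the S-phase calls in CB fell from 14 to 8, and without siControl CB replicate 4 or siAPC CB replicate 4 to 6, while the mitosis calls in CB stayed between 19 and 21 over all 16 libraries left out in turn. In Ps the S-phase calls fell from 15 to 9 without siAPC Ps replicate 4, and the mitosis calls ranged from 21 to 23.

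Among the S-phase members, the MCM2-7 helicase opens DNA ahead of the fork, and 5 of its 6 subunits were higher in siAPC in each fraction. The differences ran from 0.15 to 0.77 in CB and from 0.25 to 0.73 in Ps. Mcm7 (chr5:138164583-138172422), the subunit with the highest level per transcript length (mean log2 CPM per kb of 4.31), measured 5.85, 5.95, 5.20 and 5.39 in siControl CB and 6.26, 6.15, 6.25 and 6.37 in siAPC CB, a difference of 0.66 (SE 0.14, adjusted p = 0.0037). Its Ps values were 5.79, 5.56, 5.39 and 5.26 for siControl and 5.99, 6.01, 6.21 and 6.39 for siAPC, a difference of 0.65 (SE 0.14, adjusted p = 0.00245). The siAPC values of Mcm7 were all above the siControl values in both fractions, and 26% of its 50-base stretches recur in Gm5487, which is not a listed gene. Mcm2 (chr6:88883474-88898780) stood at 5.78, 5.88, 5.32 and 5.49 in siControl CB and 6.05, 5.91, 6.13 and 6.24 in siAPC CB, a difference of 0.47 (SE 0.13, adjusted p = 0.0174). For Mcm6 (chr1:128331590-128359664) the CB values were 5.47, 5.50, 4.95 and 5.25 in siControl and 5.73, 5.66, 5.58 and 5.77 in siAPC, which differed by 0.39 (SE 0.13, adjusted p = 0.0452). Both Mcm2 and Mcm6 were called with groups fully apart in CB, and siControl replicates 1 and 2 stood close below the siAPC values. In Ps, Mcm6 measured 5.59, 5.68, 5.12 and 5.20 for siControl and 5.65, 5.74, 5.87 and 5.97 for siAPC, groups that overlapped, with a difference of 0.41 (SE 0.13, adjusted p = 0.0254). Mcm4, at 0.15 in CB (95% interval -0.08 to 0.38) and 0.25 in Ps (0.01 to 0.48), was the subunit that passed in neither fraction.

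The weakest helicase calls rested on single libraries. Mcm2 lost its CB call without siControl CB replicate 3 or 4 or siAPC CB replicate 4 (adjusted p from 0.0529 to 0.0699). Mcm6 lost its CB call without siControl CB replicate 3 or 4, any 1 of the siAPC CB replicates, or siAPC Ps replicate 3 (0.0551 to 0.132), and also without an intensity trend (0.0873) or when the 4 GC-trend libraries were left out (0.098). Its Ps call was lost without siControl Ps replicate 3 or 4, without siAPC Ps replicate 3 or 4 (0.0625 to 0.0925) or without an intensity trend (0.0551). Over all 26 alternatives the adjusted p of Mcm2 in CB ran from 0.00831 to 0.0699, that of Mcm6 from 0.0217 to 0.132 in CB and from 0.000114 to 0.0925 in Ps.

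Of the 3 licensing genes, 0 were called in CB and 2 in Ps. Cdt1 (chr8:122568015-122573554), which brings the helicase to origins and had the highest level of the 3 per transcript length (4.28 log2 CPM per kb), measured 5.49, 5.50, 5.17 and 5.41 in siControl CB and 5.60, 5.57, 5.91 and 5.88 in siAPC CB, a difference of 0.35 (SE 0.12, adjusted p = 0.054). The Ps libraries held 5.23, 5.02, 5.04 and 5.01 for siControl and 5.27, 5.15, 5.62 and 5.69 for siAPC, a difference of 0.36 (SE 0.12, adjusted p = 0.0317). Its groups were apart in CB and overlapped in Ps, where siControl replicate 1 stood above siAPC replicate 2. Gmnn, the inhibitor of Cdt1, differed by 0.47 in CB (adjusted p = 0.0896) and by 0.57 in Ps (0.0283), and Cdc6, a loading ATPase, by 0.80 (0.0554) and 0.49 (0.219). The CB result of Cdt1 passed in 9 of 26 alternatives (adjusted p from 0.02 to 0.172 over all of them), among them leaving out siAPC CB replicate 2, siAPC Ps replicate 2 or siAPC Ps replicate 4 (0.0329 to 0.0414), and its Ps call was lost in 6 (from 0.00108 to 0.117), namely without siControl Ps replicate 2, 3 or 4, without siAPC Ps replicate 3 or 4 (0.0624 to 0.117) and without an intensity trend (0.0623).

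The GINS complex joins the helicase at the fork, and both GINS genes among the members rose in both fractions. The other 2, Gins3 and Gins4, are listed genes outside the members and were called in neither fraction, at 0.24 (adjusted p = 0.422) and 0.15 (0.349) in CB and 0.37 (0.145) and 0.10 (0.509) in Ps. Gins1 (chr2:150905400-150931280) was the S-phase member with the largest difference in Ps. It measured 1.2, 0.94, 1.05 and 0.79 in siControl Ps and 2.15, 2.09, 2.20 and 2.57 in siAPC Ps, a difference of 1.26 (SE 0.19, adjusted p = 8.24e-05) or 2.39-fold. All siAPC Ps values of Gins1 stood well above the siControl values. In CB its siControl libraries held 0.48, 1.25, 0.44 and 0.46 and its siAPC libraries 1.60, 1.58, 1.35 and 1.58, a difference of 0.87 (SE 0.19, adjusted p = 0.00409), with siControl replicate 2 far above the other 3. Gins2 (chr8:120578633-120589304), the more abundant per length (2.22 log2 CPM per kb), measured 4.06, 3.92, 3.48 and 3.66 in siControl CB and 4.14, 4.22, 4.27 and 4.44 in siAPC CB, a difference of 0.49 (SE 0.13, adjusted p = 0.0184). In Ps its values were 4.34, 4.06, 4.28 and 3.79 for siControl and 4.45, 4.39, 4.62 and 4.77 for siAPC, a difference of 0.44 (SE 0.13, adjusted p = 0.023), and the groups were apart in both fractions. Exons of Gse1 on the opposite strand cover 67.3% of the exon bases of Gins2, and no source used here says whether counting took strand into account, so its reads may be shared. Gins2 lost its CB call without siControl CB replicate 3 or 4 or siAPC CB replicate 4 (0.054 to 0.0736) or the 4 libraries with a GC trend (0.0607), and its Ps call without siControl Ps replicate 4 or siAPC Ps replicate 3 or 4 (0.0574 to 0.0914), with adjusted p over all 26 alternatives from 0.00696 to 0.0736 and from 0.00105 to 0.0914.

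Polymerase alpha with primase starts each new strand, and neither Prim1 nor Pola1 passed in either fraction. Prim1 (chr10:128015168-128030037), a primase subunit, measured 1.92, 2.44, 2.20 and 1.91 in siControl CB and 2.39, 2.51, 2.37 and 2.50 in siAPC CB, a difference of 0.33 (SE 0.15, adjusted p = 0.183). In Ps it measured 3.31, 3.40, 2.65 and 3.04 for siControl and 3.31, 3.55, 3.35 and 3.28 for siAPC, a difference of 0.27 (SE 0.15, adjusted p = 0.236). The siRNA groups of Prim1 overlapped in both fractions, and the CB result passed in 1 of 26 alternatives, the correction for GC content and length (adjusted p = 0.0302, from 0.0302 to 0.381 over all). Pola1, the catalytic subunit, differed by 0.16 in CB (95% interval -0.30 to 0.63) and by 0.40 in Ps (-0.07 to 0.86).

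The sliding clamp and the enzymes that finish the lagging strand gave small differences. Pcna (chr2:132249162-132253314), the clamp and the S-phase member with the highest level per length (5.15 log2 CPM per kb), measured 5.78, 5.80, 5.50 and 5.53 in siControl CB and 5.82, 5.75, 5.75 and 5.93 in siAPC CB, a difference of 0.16 (SE 0.10, adjusted p = 0.367). Its Ps values were 5.69, 5.72, 5.66 and 5.61 for siControl and 5.65, 5.61, 6.03 and 6.14 for siAPC, a difference of 0.19 (SE 0.10, adjusted p = 0.228). The groups of Pcna overlapped, its 95% intervals reached up to 0.37 in CB and 0.40 in Ps, and 31.8% of its 50-base stretches also occur in the listed gene Pcna-ps2, so its reads may be split. Its Ps result passed in 2 of 26 alternatives, array weights (0.02) and scaling to total listed reads (0.0156), with a range from 0.0156 to 0.596. Lig1 (chr7:13277283-13311433) measured 5.45, 5.42, 4.78 and 4.81 in siControl CB and 5.48, 5.40, 5.65 and 5.70 in siAPC CB, groups that overlapped, with a difference of 0.44 (SE 0.14, adjusted p = 0.0491). Fen1 (chr19:10199132-10204169), the flap nuclease, measured 4.50, 4.49, 3.77 and 4.15 in siControl CB and 4.62, 4.58, 4.86 and 4.76 in siAPC CB, groups that were apart, with a difference of 0.48 (SE 0.15, adjusted p = 0.0368). In Ps, Fen1 was also called at 0.55 (adjusted p = 0.0106) and Lig1 was not, at 0.30 (0.15).

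Neither the Lig1 nor the Fen1 call in CB was firm. Lig1 lost it in 13 of 26 alternatives (adjusted p from 0.0174 to 0.169), namely without siControl CB replicate 3 or 4, siControl Ps replicate 1 or 3, siAPC CB replicate 1, 3 or 4, or siAPC Ps replicate 1 or 3 (0.0529 to 0.169), without an intensity trend (0.0942), with array weights (0.0681), with replicate number as a block (0.0808) and when the 4 GC-trend libraries were left out (0.0733). Fen1 lost it in 7 (from 0.0166 to 0.111), namely without siControl CB replicate 3 or 4 or siAPC CB replicate 1, 3 or 4 (0.0572 to 0.111), without an intensity trend (0.0695) and when the 4 GC-trend libraries were left out (0.0543). Opposite-strand exons of Tmem258 and Gm10143 cover 84.2% of the exon bases of Fen1.

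Among the genes of deoxynucleotide supply, all 3 rose in both fractions, from 0.55 to 0.88 in CB and from 0.66 to 0.78 in Ps, with groups apart in every case. Tyms (chr5:30058202-30073617), the thymidylate synthase and the highest per length (3.01 log2 CPM per kb), measured 4.28, 4.45, 3.87 and 4.11 in siControl CB and 4.71, 4.64, 4.72 and 4.84 in siAPC CB, a difference of 0.55 (SE 0.12, adjusted p = 0.00443). The Ps libraries held 4.87, 4.70, 4.30 and 4.35 for siControl and 5.21, 5.13, 5.24 and 5.27 for siAPC, a difference of 0.66 (SE 0.12, adjusted p = 0.000636). The ribonucleotide reductase subunits rose as well, Rrm2 by 0.88 and 0.78 and Rrm1 by 0.61 and 0.69 (CB and Ps), and no library left out, scaling or other alternative moved the Tyms calls past the threshold. A pseudogene shares 10.1% of the 50-base stretches of Tyms.

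Of 3 genes that control entry into S phase, 1 was called in CB and 2 in Ps. E2f1 (chr2:154559407-154569892), a transcription factor of S-phase genes and the highest of the 3 per length (3.35 log2 CPM per kb), measured 4.71, 4.78, 4.49 and 4.75 in siControl CB and 5.00, 4.92, 5.10 and 4.98 in siAPC CB, a difference of 0.32 (SE 0.10, adjusted p = 0.037). In Ps it measured 4.65, 4.46, 4.52 and 4.48 for siControl and 5.00, 4.71, 5.13 and 5.24 for siAPC, a difference of 0.49 (SE 0.10, adjusted p = 0.00108). The E2f1 groups were apart in both fractions, and its CB difference was the smallest of any called member there. It lost that call in 7 of 26 alternatives (adjusted p from 0.0054 to 0.114), namely without siControl CB replicate 1, 3 or 4 or siAPC CB replicate 1, 3 or 4 (0.0566 to 0.114) and without an intensity trend (0.0584). Ccne1 (chr7:38097984-38107534), the cyclin E1 gene, measured 3.84, 3.68, 3.79 and 3.93 in siControl Ps and 3.93, 4.17, 4.26 and 4.47 in siAPC Ps, a difference of 0.39 (SE 0.12, adjusted p = 0.0201), with siControl replicate 4 and siAPC replicate 1 level. That call was lost without siControl Ps replicate 2 or siAPC Ps replicate 3 or 4 (0.051 to 0.079, and from 0.00139 to 0.079 over all 26 alternatives). Ccne2, the cyclin E2 gene, held only 4 to 18 reads per library and differed by -0.42 in CB (95% interval -1.23 to 0.39), where it was the single member below 0, and by 0.68 in Ps (-0.14 to 1.49).

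Checkpoint and repair genes were rare RNAs with wide errors. Brca1 (chr11:101488764-101551955), which acts in repair of broken replication forks, measured 0.60, 0.75, 0.57 and -0.17 in siControl CB and 1.16, 1.48, 1.16 and 1.68 in siAPC CB, a difference of 0.93 (SE 0.28, adjusted p = 0.034), with groups apart and 16 to 56 reads per CB library. Its Ps values were 0.57, 1.58, 0.03 and 0.66 for siControl and 0.91, 1.68, 1.46 and 1.33 for siAPC, a difference of 0.63 (SE 0.28, adjusted p = 0.122), with siControl replicate 2 among the siAPC values. Its CB call was lost without siControl CB replicate 1 or 4 or siAPC CB replicate 2 or 4 (0.0512 to 0.123, and from 0.00768 to 0.123 over 25 alternatives), and its Ps result passed without siControl Ps replicate 2 (0.0142), with array weights (0.0206) and when the 4 GC-trend libraries were left out (0.0403), and reached 0.358 at most. Chek1, the checkpoint kinase, held 5 to 23 reads per library and differed by 0.07 (95% interval -0.83 to 0.98) in CB and 0.73 (-0.18 to 1.63) in Ps.

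**Figure D3:**
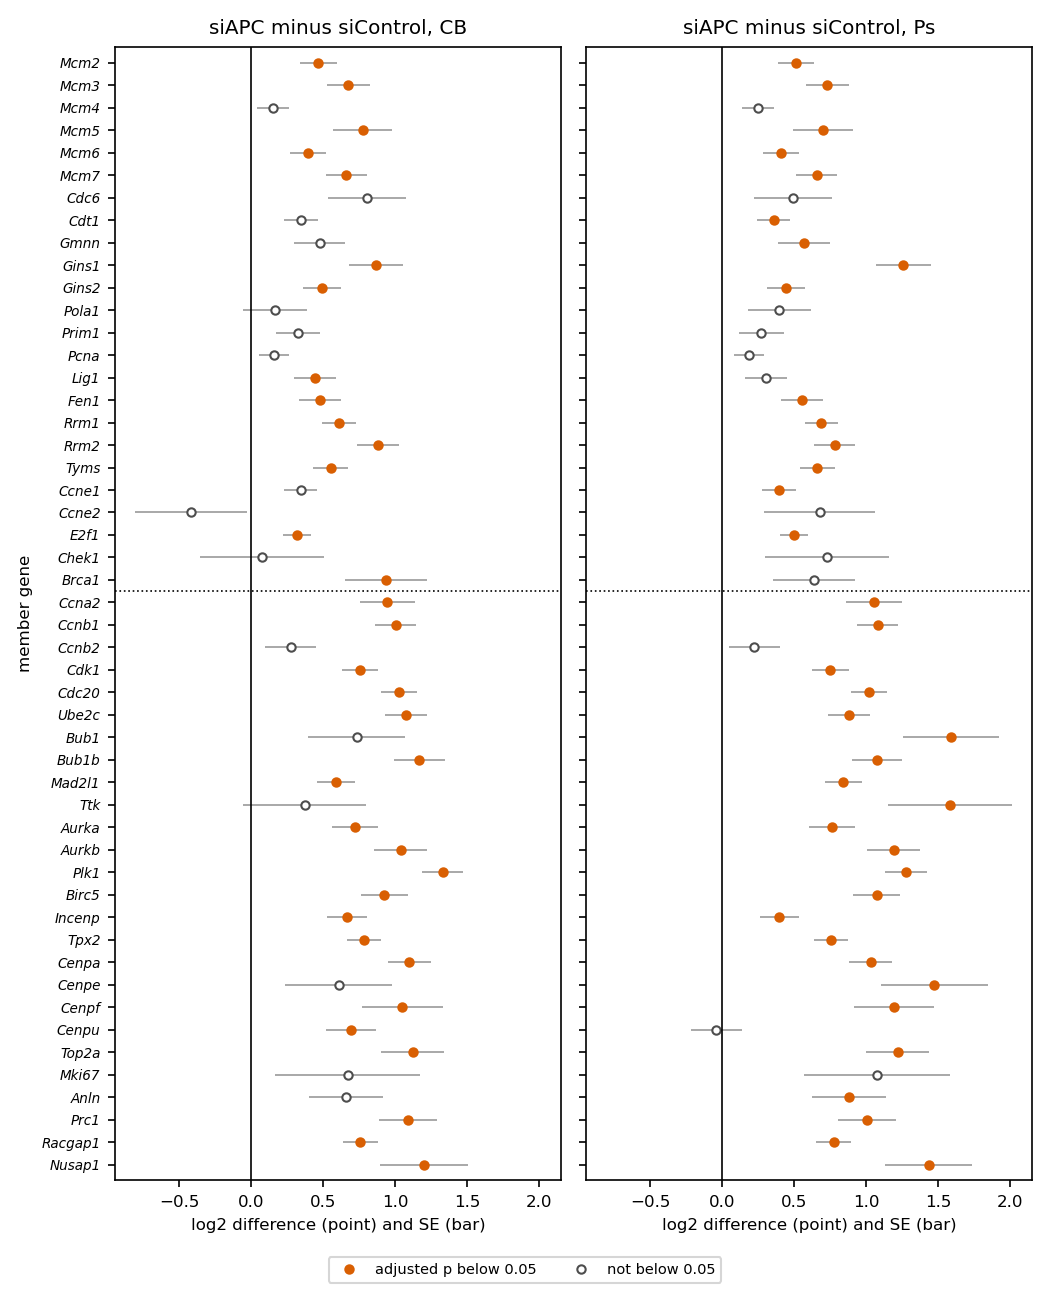
Log2 difference of siAPC minus siControl for the 50 members (rows) in CB and in Ps, with the point as the difference and the bar as its SE. Filled points passed an adjusted p of 0.05, and below the dotted line, which parts S-phase from mitosis members, most points lie to the right of 0.5.

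Among the mitosis members, the cyclins and their kinase Cdk1 drive entry into mitosis, and 3 of 4 rose in each fraction. Cdk1 (chr10:69335146-69352938), the highest per length (2.96 log2 CPM per kb), measured 5.07, 5.09, 4.51 and 4.77 in siControl CB and 5.58, 5.43, 5.60 and 5.86 in siAPC CB, a difference of 0.76 (SE 0.13, adjusted p = 0.000368). The Ps libraries held 4.62, 4.72, 4.43 and 4.51 for siControl and 5.08, 5.26, 5.38 and 5.56 for siAPC, a difference of 0.75 (SE 0.13, adjusted p = 0.000253). All siAPC values of Cdk1 lay above all siControl values in both fractions. Ccnb1, the cyclin B1 gene, doubled in both fractions (differences of 1.00 and 1.08), although 42.1% of its 50-base stretches recur in a pseudogene, and Ccna2, the cyclin A2 gene, rose by 0.94 and 1.05. Opposite-strand exons cover 12.5% of the exon bases of Ccna2, and likewise 17.4% of Ccne2 and 11.1% of Prc1. Ccnb2, the cyclin B2 gene, differed by 0.27 (95% interval -0.10 to 0.65) in CB and 0.22 (-0.15 to 0.59) in Ps and passed in neither.

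Cdc20 and Ube2c, the activator and the E2 enzyme of the anaphase-promoting complex, about doubled. Cdc20 (chr4:118432901-118437352; 4.35 log2 CPM per kb) measured 5.08, 5.14, 4.63 and 4.82 in siControl CB and 5.85, 5.67, 6.11 and 6.13 in siAPC CB, a difference of 1.02 (SE 0.13, adjusted p = 1.31e-05). In Ps it measured 4.58, 4.34, 4.45 and 4.43 for siControl and 5.49, 5.15, 5.59 and 5.64 for siAPC, a difference of 1.02 (SE 0.13, adjusted p = 8.91e-06). Each siAPC library of Cdc20 stood above each siControl library of its fraction, and 11.4% of its 50-base stretches recur in Gm7856, which is not listed either. Ube2c rose by 1.07 in CB and 0.88 in Ps, with groups apart, and opposite-strand exons of Tnnc2 cover 22.8% of its exon bases.

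The spindle checkpoint holds back anaphase until chromosomes are attached, and 4 of its genes are members. Bub1b, Bub1 and Mad2l1 were called in Ps, and Bub1b and Mad2l1 in CB. Ttk is described without a test. Bub1b (chr2:118598211-118641591), the gene of BubR1 and the highest of the 4 per length (1.63 log2 CPM per kb), measured 3.31, 3.41, 2.70 and 2.98 in siControl CB and 4.22, 4.08, 4.34 and 4.42 in siAPC CB, a difference of 1.17 (SE 0.18, adjusted p = 0.000135). Its Ps values were 3.00, 3.28, 2.49 and 2.43 for siControl and 3.77, 3.69, 4.0 and 4.03 for siAPC, a difference of 1.07 (SE 0.18, adjusted p = 0.000198), with groups apart in both fractions. Bub1 (chr2:127801122-127831865), a kinase of the checkpoint, measured -0.24, 0.60, -1.02 and -0.58 in siControl Ps and 1.18, 1.37, 1.05 and 1.50 in siAPC Ps, a difference of 1.59 (SE 0.34, adjusted p = 0.00196) or 3-fold. Ttk (chr9:83834689-83872389), the kinase Mps1, measured -0.73, -1.15, -2.60 and -2.51 in siControl Ps and -0.11, -0.04, -0.12 and -0.40 in siAPC Ps, a difference of 1.58. The groups of both genes were apart in Ps, but the RNAs were rare, with 7 to 18 (Bub1) and 2 to 7 (Ttk) reads per siControl Ps library. Replicates 3 and 4 of siControl Ps held 2 reads of Ttk each, below the floor of 3 reads, so that its fitted difference depends on the 0.5 reads added by the authors. In CB, Bub1 differed by 0.73 (adjusted p = 0.17) and Ttk by 0.37, with overlapping groups, and Mad2l1 rose by 0.59 in CB and 0.84 in Ps.

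The mitotic kinases and the chromosomal passenger complex rose as a whole, with 6 of 6 called in each fraction. Plk1 (chr7:122159439-122169873), the polo-like kinase of mitotic entry, had the largest difference of any member in CB. It measured 3.71, 3.87, 3.18 and 3.30 in siControl CB and 4.75, 4.59, 4.92 and 5.11 in siAPC CB, a difference of 1.33 (SE 0.14, adjusted p = 2.83e-06) or 2.51-fold. In Ps the siControl libraries held 2.62, 2.86, 2.59 and 2.64 and the siAPC libraries 3.81, 3.80, 4.08 and 4.13, a difference of 1.28 (SE 0.14, adjusted p = 3.22e-06) or 2.42-fold. The siRNA groups of Plk1 were far apart in both fractions. Birc5 (chr11:117849251-117855743), the survivin gene and the highest of the 6 per length (3.25 log2 CPM per kb), measured 4.70, 4.61, 3.91 and 4.25 in siControl CB and 5.23, 5.11, 5.30 and 5.50 in siAPC CB, a difference of 0.92 (SE 0.16, adjusted p = 0.000657). The Ps libraries held 4.89, 4.93, 4.33 and 4.29 for siControl and 5.65, 5.55, 5.64 and 5.89 for siAPC, a difference of 1.07 (SE 0.16, adjusted p = 9.25e-05), with groups apart in both fractions. Aurkb, the kinase of the passenger complex, rose by 1.04 and 1.19, Aurka, the centrosomal kinase, by 0.72 and 0.76, and Tpx2, its activator on the spindle, by 0.78 and 0.75.

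Incenp (chr19:9872296-9899551), the scaffold of the passenger complex, gave the smallest rise of the 6 in Ps. It measured 4.05, 4.29, 4.15 and 4.07 in siControl Ps and 4.42, 4.18, 4.67 and 4.86 in siAPC Ps, a difference of 0.40 (SE 0.14, adjusted p = 0.0473), with siAPC replicate 2 below siControl replicate 2. Its Ps call was lost in 14 of 26 alternatives (adjusted p from 0.00308 to 0.168), namely without siControl CB replicate 2 or 4, siControl Ps replicate 1, 3 or 4, siAPC CB replicate 1 or 3, or siAPC Ps replicate 1, 3 or 4 (0.0547 to 0.168), with replicate number as a block (0.0669), without an intensity trend (0.0811), with quantile normalization (0.0631) and with voom weights (0.0645). In CB it rose by 0.66 (adjusted p = 0.00287) with groups apart.

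At the centromere, 3 of 4 genes rose in each fraction. Cenpa (chr5:30666777-30674830), the histone that marks centromeres, was the highest per length (3.73 log2 CPM per kb). It measured 3.83, 3.99, 3.32 and 3.35 in siControl CB and 4.66, 4.52, 4.78 and 4.91 in siAPC CB, a difference of 1.10 (SE 0.15, adjusted p = 3.98e-05). In Ps it measured 3.97, 4.23, 3.65 and 3.69 for siControl and 4.94, 4.75, 4.92 and 5.05 for siAPC, a difference of 1.03 (SE 0.15, adjusted p = 5.05e-05), with groups apart in both fractions. Cenpe (chr3:135212537-135273611) measured -0.55, 0.03, -1.02 and -0.74 in siControl Ps and 0.52, 1.33, 1.02 and 0.74 in siAPC Ps, a difference of 1.47 (SE 0.37, adjusted p = 0.00753), at 7 to 12 reads per siControl Ps library and 22 to 38 per siAPC Ps library. Its groups were apart in Ps and overlapped in CB, where it differed by 0.61 (adjusted p = 0.325) and siControl replicate 3 stood high. Cenpf, a large kinetochore protein, rose by 1.05 and 1.19. Cenpu, a subunit of the inner kinetochore, rose by 0.69 in CB (adjusted p = 0.0115) and stood at -0.04 in Ps (95% interval -0.41 to 0.32), the single member below 0 there.

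Top2a (chr11:98992943-99024189; 2.15 log2 CPM per kb) and Mki67, the gene of the Ki-67 marker of cycling cells, coat or reshape mitotic chromosomes. Top2a measured 3.93, 3.85, 3.83 and 3.08 in siControl CB and 4.69, 4.92, 4.55 and 5.01 in siAPC CB, a difference of 1.12 (SE 0.22, adjusted p = 0.00163). Its Ps values were 4.28, 5.02, 3.73 and 3.85 for siControl and 5.28, 5.57, 5.39 and 5.52 for siAPC, a difference of 1.22 (SE 0.22, adjusted p = 0.00049). Its groups were apart in both fractions, and siControl CB replicate 4 was far below the other 3. Mki67 measured -0.12, 0.20, 1.93 and -0.96 in siControl CB and 0.34, 2.18, 0.55 and 0.64 in siAPC CB. It differed by 0.67 (95% interval -0.39 to 1.73) in CB and 1.07 (0.01 to 2.14) in Ps, with overlapping groups, and passed in neither.

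The spindle midzone and cytokinesis genes complete the list, with 3 of 4 called in CB and 4 of 4 in Ps. Racgap1 (chr15:99620496-99651656), the centralspindlin subunit and the highest per length (4.78 log2 CPM per kb), measured 6.29, 6.32, 5.75 and 5.92 in siControl CB and 6.81, 6.72, 6.85 and 6.94 in siAPC CB, a difference of 0.76 (SE 0.12, adjusted p = 0.000245). The Ps libraries held 5.98, 6.23, 5.82 and 5.73 for siControl and 6.57, 6.65, 6.72 and 6.92 for siAPC, a difference of 0.77 (SE 0.12, adjusted p = 0.00012), and the groups were apart in both. Prc1 (chr7:80294450-80316259) measured 2.4, 2.31, 2.26 and 1.71 in siControl CB and 3.00, 3.22, 3.25 and 3.57 in siAPC CB, a difference of 1.09 (SE 0.20, adjusted p = 0.000953), again with groups apart. Nusap1 (chr2:119618298-119651244), a spindle microtubule binder, measured 0.14, -0.04, 1.23 and -0.0021 in siControl CB and 1.01, 1.95, 1.16 and 2.00 in siAPC CB, a difference of 1.2 (SE 0.30, adjusted p = 0.0115). In Ps it measured 1.47, 2.07, 0.80 and 1.10 for siControl and 2.85, 2.92, 2.63 and 2.78 for siAPC, a difference of 1.43 (SE 0.30, adjusted p = 0.00192) or 2.7-fold. The Nusap1 groups were apart in Ps and overlapped in CB through siControl replicate 3, and its CB call was lost without siAPC CB replicate 4 (0.0528, the highest of 26 alternatives, against a lowest of 0.000124). Anln, the anillin gene, differed by 0.66 in CB (adjusted p = 0.101) and rose by 0.88 in Ps (0.0184).

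**Figure D4:**
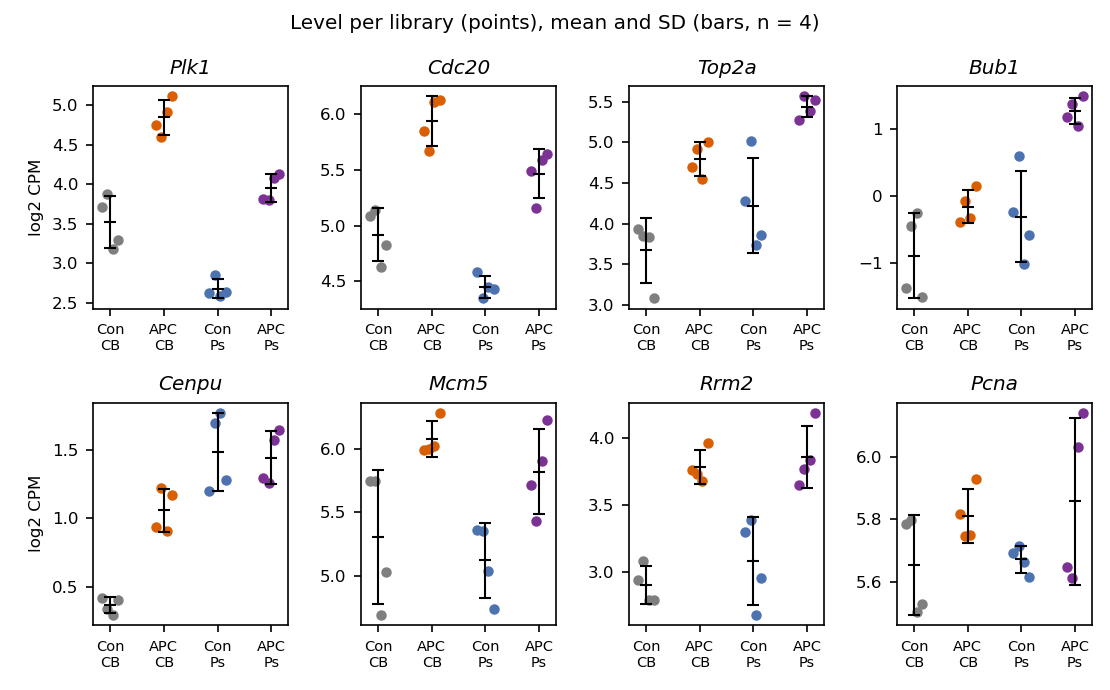
Level in log2 CPM of 8 members in the 4 groups (Con for siControl, APC for siAPC), with 1 point per library and bars for the mean and SD of 4 libraries; the vertical axes differ between panels and do not start at 0. Plk1 and Cdc20 are higher in siAPC and lower in Ps, Top2a is higher in siAPC in both fractions and Bub1 stands apart above siControl in Ps, Cenpu is higher with siAPC in CB and overlaps in Ps, and the Pcna groups overlap.

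The second comparison asked how the members were divided between protrusions and cell bodies. Unlike the siRNA differences these went both ways, as they did over all genes. In siControl, 12 of 50 members were higher in Ps and 6 lower, against 29.1% and 31.2% of all genes. In siAPC, 18 were higher in Ps and 7 lower, against 29.8% and 30.9%. The 18 include Ttk, which is otherwise described without a p. The median over members was 0.19 in siControl and 0.20 in siAPC, beside -0.00091 and 0.01 over all genes, and 31 of 50 members were above 0 in each. In siAPC, where replicate numbers pair the fractions, a block on replicate number moved the calls to 23 higher and 12 lower (4082 and 4177 over all genes). In siControl the calls became 5 higher and 14 lower when the 4 GC-trend libraries were left out (3999 and 4116 over all genes), and in siAPC 17 higher and 8 lower (3914 and 4016).

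The called members lowest in protrusions relative to cell bodies in siControl were Plk1, Aurka, Aurkb, Cdc20 and Cdt1. Plk1 fell from 3.71, 3.87, 3.18 and 3.30 in CB to 2.62, 2.86, 2.59 and 2.64 in Ps of siControl, a difference of -0.84 (SE 0.14, adjusted p = 5.51e-05), or 0.559 of the CB level. With siAPC, from the values given above, it was -0.89 (SE 0.14, adjusted p = 3.03e-05), and Ps and CB libraries of Plk1 were apart under both siRNAs. Aurka measured 3.43, 3.50, 3.12 and 3.38 in siControl CB and 2.83, 3.15, 2.37 and 2.61 in siControl Ps, a difference of -0.62 (SE 0.16, adjusted p = 0.00274). With siAPC, CB held 3.98, 3.85, 4.17 and 4.32 and Ps 3.40, 3.29, 3.40 and 3.91, which differed by -0.58 (SE 0.16, adjusted p = 0.00445). Aurkb measured 3.57, 3.75, 2.94 and 3.15 in siControl CB and 3.03, 3.15, 2.59 and 2.21 in siControl Ps, a difference of -0.61 (SE 0.18, adjusted p = 0.00786). With siAPC, CB held 4.32, 4.28, 4.43 and 4.53 and Ps 3.82, 3.90, 3.86 and 4.16, which differed by -0.46 (SE 0.18, adjusted p = 0.0393). The fractions overlapped for Aurka under both siRNAs and for Aurkb in siControl, and Aurkb in siAPC was apart but lost its call in 8 of 26 alternatives (adjusted p from 0.00133 to 0.0965), namely without siAPC CB replicate 1, 3 or 4 or siAPC Ps replicate 1, 2 or 3 (0.0546 to 0.0965), without an intensity trend (0.0642) and with quantile normalization (0.0634). Cdc20, with the values given above, differed by -0.47 (SE 0.13, adjusted p = 0.00339) for siControl and -0.47 (SE 0.13, adjusted p = 0.00306) for siAPC, apart in both. Incenp measured 4.77, 4.70, 5.01 and 5.18 in siAPC CB and differed by -0.38 (SE 0.14, adjusted p = 0.0233) in siAPC, and Cdt1 differed by -0.32 (SE 0.12, adjusted p = 0.0226) in siControl, both with overlapping fractions.

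Members higher in protrusions included the primase and polymerase alpha genes, which had not passed between siRNAs. Prim1 was higher in Ps of siControl by 0.98 (SE 0.15, adjusted p = 1.9e-05) and Pola1 by 0.68 (SE 0.22, adjusted p = 0.0125), and in siAPC by 0.93 and 0.91. Pola1 measured 0.86, 0.89, 0.69 and -0.08 in siControl CB and 1.47, 1.27, 1.10 and 1.24 in siControl Ps. With siAPC, Pola1 held 0.71, 1.05, 0.55 and 0.70 in CB and 1.40, 2.02, 1.41 and 1.83 in Ps. The fractions were apart for both genes. Cenpu measured 0.42, 0.34, 0.30 and 0.40 in siControl CB and 1.2, 1.69, 1.76 and 1.28 in siControl Ps, a difference of 1.12 (SE 0.17, adjusted p = 1.92e-05), the largest of the members in siControl. Nusap1 was higher in Ps by 1.03 (SE 0.30, adjusted p = 0.00638) in siControl and 1.27 (SE 0.30, adjusted p = 0.00136) in siAPC. Its fractions overlapped in siControl through CB replicate 3. Cenpf measured -0.68, 0.34, 0.24 and -0.26 in siControl CB and 1.14, 1.22, -0.07 and 0.60 in siControl Ps, overlapping through Ps replicate 3, with a difference of 0.81 (SE 0.28, adjusted p = 0.017).

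In siAPC the rare RNAs led. Ccne2 measured -1.35, -1.04, -2.11 and -1.97 in siAPC CB and 0.07, 0.31, -0.86 and 0.09 in siAPC Ps, a difference of 1.52 (SE 0.39, adjusted p = 0.00225). Bub1 measured -0.39, -0.08, -0.33 and 0.15 in siAPC CB and was higher in Ps by 1.44 (SE 0.34, adjusted p = 0.00112). Ttk measured -2.27, -0.65, -1.58 and -1.23 in siAPC CB and differed by 1.26, and Cenpe, at -0.39, 0.26, -1.03 and -0.01 in siAPC CB, was higher in Ps by 1.19 (SE 0.37, adjusted p = 0.00939). These 4 were apart between the fractions, at 4 to 9 (Ccne2), 15 to 19 (Bub1), 4 to 12 (Ttk) and 9 to 23 (Cenpe) reads per siAPC CB library. Ccne2, Bub1 and Cenpe did not pass in siControl, and Ttk is described without a test.

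GC content moved with these differences. Across the 50 members the Ps minus CB difference fell with the GC content of the transcript (Spearman's rho = -0.632 in siControl and -0.763 in siAPC), and it did so over 9880 genes as well (-0.368 and -0.48). It also fell with the mean level of the members (-0.525 and -0.605), whose part in the result was not tested. These are descriptions across genes that share libraries, and the part of GC content in the result was tested only by removing a smooth trend. After a loess correction on GC content and transcript length, Plk1 stood at -0.62 in siControl (adjusted p = 0.000403) and -0.65 in siAPC (0.000303), and Aurka at -0.67 (0.000927) and -0.62 (0.00191), so both stayed lower in Ps. Cdc20 stayed lower as well, at -0.39 (0.00196) and -0.37 (0.00342), and so did Aurkb, at -0.59 (0.00653) and -0.43 (0.044). Cdt1 moved to -0.02 (0.861) in siControl and Incenp to -0.01 (0.964) in siAPC, and neither was called. On the higher side, Cenpu (0.86, adjusted p = 0.000551), Nusap1 (0.68, 0.0231), Prim1 (0.45, 0.00489) and Cenpf (0.77, 0.0267) kept their calls in siControl and Pola1 (0.42, 0.116) did not. In siAPC, Nusap1 (0.78, 0.0117), Bub1 (0.89, 0.0187) and Cenpe (0.89, 0.0179) kept theirs, and so did Prim1 (0.36, 0.0238), and Ccne2 (0.57, 0.135) and Pola1 (0.49, 0.0725) did not. Ttk, described without a p, stood at 0.82 in siAPC after the correction.

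**Figure D5:**
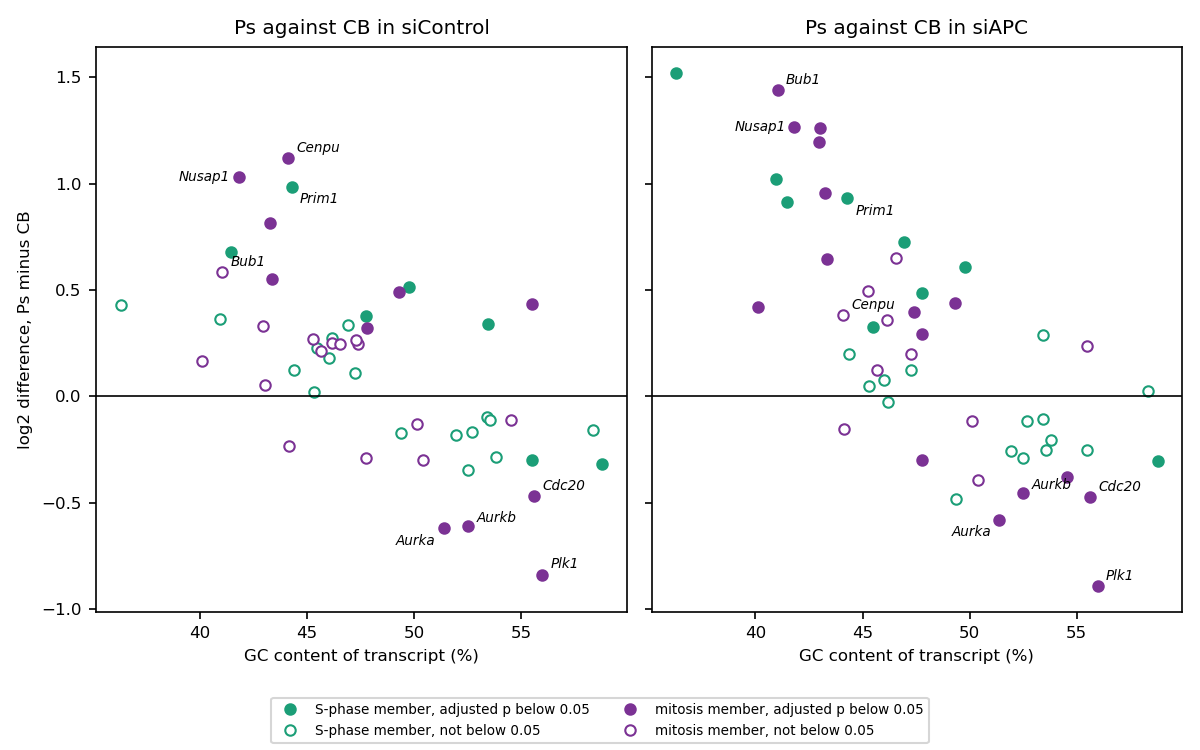
Log2 difference of Ps minus CB (vertical axis) against the GC content of the transcript in percent (horizontal axis) for the 50 members, in siControl and in siAPC. Points fall from upper left to lower right in both panels (rho of -0.632 and -0.763), with Plk1 lowest at a GC content of 56%.

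Scaling shifted all genes between the fractions, and the members with them. When libraries were scaled to their total listed reads, the median over all genes moved to -0.30 in siControl and -0.14 in siAPC, the median over members to -0.10 in siControl and 0.04 in siAPC, and the calls to 2 higher and 19 lower (siControl) and 11 higher and 15 lower (siAPC). Over all genes the split of calls in siControl then became 2005 higher and 6193 lower, from 3792 and 4058. In siAPC that split became 2793 higher and 5114 lower, from 3877 and 4024. In siControl the higher calls fell from 12 to 5 without siControl Ps replicate 1 and to 7 without siControl CB replicate 4, and the lower calls rose from 6 to 10 without siControl CB replicate 3. In siAPC the lower calls fell from 7 to 3 without siAPC CB replicate 3 or 4 or siAPC Ps replicate 1 or 2. Besides Aurkb in siAPC, given above, and with Ttk set aside, the single calls of named members that ended without 1 library were those of Cenpf in siControl (without siControl CB replicate 1 or siControl Ps replicate 1 or 2, adjusted p from 0.062 to 0.0712), Pola1 in siControl (without siControl CB replicate 4, 0.0599), Cdt1 in siControl (without siControl CB replicate 1 or 2 or siControl Ps replicate 2 or 4, 0.0501 to 0.0643) and Incenp in siAPC (without siAPC CB replicate 3 or 4 or siAPC Ps replicate 1 or 2, 0.062 to 0.102). The difference of Ttk in siAPC, described without a p, was 0.98 without siAPC CB replicate 1. Scaling to total listed reads also ended the siControl calls of Nusap1 (0.059), Cenpf (0.124) and Pola1 (0.143), and quantile normalization those of Cdt1 in siControl (0.103) and of Incenp (0.0595) and Aurkb (0.0634) in siAPC.

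The third comparison asked whether the siRNA effect differed between the fractions, or equally whether the division between fractions changed with siAPC. In the interaction test 0 members were called in either direction, against 0% of all genes higher and 0.0231% lower, and limma-voom with weights also called 0 and 0. At an unadjusted p below 0.05 there was 1 member, Cenpu, against 2.07% of all genes higher and 1.71% lower. Cenpu measured 0.42, 0.34, 0.30 and 0.40 in siControl CB, 0.94, 1.22, 0.91 and 1.17 in siAPC CB, 1.2, 1.69, 1.76 and 1.28 in siControl Ps and 1.30, 1.25, 1.57 and 1.64 in siAPC Ps, so that siControl CB stood apart below the other 3 groups. Its interaction was -0.74 (SE 0.25, unadjusted p = 0.0079, adjusted p = 0.981, from 0.349 to 1 over 26 alternatives), it no longer passed the unadjusted threshold without the 4 GC-trend libraries (-0.53, adjusted p = 0.825), and exons of Primpol on the opposite strand cover 26.7% of its exon bases. The median interaction over the members was 0.05. Of the rare RNAs that led in siAPC, the interactions of Bub1, Cenpe and Ccne2 were 0.85, 0.86 and 1.09. Their 95% intervals were -0.14 to 1.85, -0.24 to 1.96 and -0.05 to 2.24. Those intervals span 0 and also hold a doubling. For Ttk the value was 1.21, given as a description only. The differences between fractions had the same sign under both siRNAs in 48 of 50 members (Spearman's rho = 0.871, across genes).

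Other genes of the same processes were counted as well. Of 63 other S-phase genes, 18 rose and 0 fell with siAPC in CB, while 19 rose and 1 fell in Ps, with medians of 0.24 and 0.28. Over all genes 7.52% were higher and 5.87% lower in CB, and 10.7% and 11.2% in Ps. At an unadjusted limma p below 0.05 they included 2 lower in CB, and limma-voom with weights called 1 lower there. Tk1, thymidine kinase, rose by 0.89 (SE 0.19, adjusted p = 0.00287) in CB, and Cdc45, the partner of MCM and GINS in the active helicase, by 1.10 (SE 0.16, adjusted p = 4.27e-05) in Ps. Asf1b, a histone chaperone of replication, rose by 0.88 in CB and 1.03 in Ps, and Pold4, a small subunit of polymerase delta, fell by 0.44 in Ps (adjusted p = 0.00777). The CB count of these genes fell to 11 without siControl CB replicate 4 and to 10 without siAPC CB replicate 4.

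Of 86 other mitosis genes, 46 were higher in siAPC in CB and 57 in Ps and 0 were lower in either, beside 7.52% of all genes higher and 5.87% lower in CB and 10.7% and 11.2% in Ps, with medians of 0.62 and 0.82, and 0 were lower at an unadjusted limma p below 0.05 or with voom weights. Cdc25c, the phosphatase that activates Cdk1, rose by 1.30 (SE 0.24, adjusted p = 0.00104) in CB, and Kif20a, a kinesin of cytokinesis, by 1.23 (SE 0.14, adjusted p = 4.59e-06). In Ps, Nek2, a centrosome kinase, rose by 1.37 (SE 0.25, adjusted p = 0.000638) and Kif2c, a microtubule-depolymerizing kinesin, by 1.33 (SE 0.19, adjusted p = 6.04e-05).

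Of 15 genes of the anaphase-promoting complex (its subunits and the activator gene Fzr1), CB had 1 higher and 0 lower, while Ps had 1 of each, beside 7.52% of all genes higher and 5.87% lower in CB and 10.7% and 11.2% in Ps, so the counts say little about the complex. The higher one was Anapc16, by 0.26 (SE 0.07, adjusted p = 0.0201) in CB and 0.26 in Ps, and the lower one Anapc5, which fell by 0.28 in Ps (adjusted p = 0.00248). In CB 0 of these genes were lower at an unadjusted limma p below 0.05 or with voom weights, and the CB call of Anapc16 ended without siControl CB replicate 3 or 4 or siAPC CB replicate 1 or 4 (0.0503 to 0.0632, and from 0.000893 to 0.0632 over all 26 alternatives).

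Of 12 genes of the RB family and of DREAM, which hold cell cycle genes silent in resting cells, 1 was higher in CB and 2 in Ps, and 0 were lower. Over all genes 7.52% (CB) and 10.7% (Ps) were called higher and 5.87% and 11.2% lower, so the counts say little about these genes. Tfdp2, a partner of E2F, rose by 0.34 in CB (adjusted p = 0.0316) and 0.33 in Ps (0.0264), and Rbl1, the p107 gene, by 0.74 in Ps (0.00158). At an unadjusted limma p below 0.05 there were 0 lower in CB and 1 in Ps, and 0 with voom weights in CB. The Tfdp2 call ended in CB without siControl CB replicate 1 or 2 or siAPC CB replicate 1 or 4 (0.0754 to 0.13, and from 0.00173 to 0.13 over all 26 alternatives), and in Ps without siControl Ps replicate 3 or 4 or siAPC Ps replicate 1, 2 or 3 (0.0509 to 0.0776) or with the GC correction (0.0692, from 0.00199 to 0.0776 over all).

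Of 11 listed CDK inhibitor and quiescence genes, CB had 1 higher and 2 lower, while Ps had 1 of each, beside 7.52% of all genes higher and 5.87% lower in CB and 10.7% and 11.2% in Ps, so the counts say little about the list. Btg1, an antiproliferative gene, rose by 0.36 in CB (adjusted p = 0.000798) and 0.44 in Ps (6.74e-05). In CB, Pdgfra, a growth factor receptor that resting fibroblasts express, fell by 0.40 (0.00707) and Ccng1, the cyclin G1 gene, by 0.45 (0.049), and in Ps, Gas2, a growth-arrest gene, fell by 0.48 (0.0473). Ccng1 lost its call in 13 of 26 alternatives (0.00141 to 0.138), among them leaving out siControl CB replicate 3, siControl Ps replicate 1, 3 or 4, siAPC CB replicate 1, 3 or 4, or siAPC Ps replicate 1, 3 or 4 (0.0508 to 0.138). Gas2 lost its call in 14 (0.0182 to 0.208), among them a block on replicate number (0.0766) and leaving out siControl CB replicate 1 or 4, siControl Ps replicate 2, 3 or 4, siAPC CB replicate 1 or 4, or any 1 of the siAPC Ps replicates (0.052 to 0.131).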

How the data were processed

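RNA from NIH/3T3 cells was measured in 16 libraries, 4 in each of 4 groups, and the groups were taken from the sample labels. The authors describe the libraries as stranded and of total RNA, and name the TruSeq Stranded mRNA kit. They converted the runs with bcl2fastq 1.8.4, aligned reads with STAR 2.4.2a to mm10 and counted them with Rsubread over mouse GENCODE release 4. After an expression cutoff, they deposited 13015 genes as log2 CPM values from limma-voom (limma 3.26.1). Whether counting used strand is not given in the sources used here. The study calls its 4 replicates independent, and p-values measure the spread between these libraries.

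All 13015 genes were fitted with limma 3.58.1 (R 4.3.3), with 1 mean per group, an intensity trend in the prior and no block, and p-values were adjusted by the Benjamini-Hochberg method over all genes, 2-sided, at 0.05. A log2 value follows the authors' prior of 0.5 reads, so differences of rare RNAs are understated. Whole reads were recovered from the deposited values (100% of 208240 values whole within 0.01 reads) and gave depth and the floor of 3 reads. Limma-voom weights on these reads were tried as well. Intervals and floors cover counting error only where they rest on reads.

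The 50 members, the other gene lists and the tests were chosen with earlier results of these data known. Values in every library are given for Apc, the 6 highest and 6 lowest called members of each siRNA comparison, the 5 highest and 5 lowest of each fraction comparison, the interaction below an unadjusted p of 0.05, and the member of highest level per transcript length in each role group. Of the other lists, the 2 highest and 2 lowest called genes with a mean log2 CPM of at least 1 are named. A few further members were named after their values were seen.

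Gene positions, GC content and length came from GENCODE M21 (mm10) and promoters from RefSeq (GRCm38.p6). Replicate numbers were checked for pairing by the correlation of deviations from group means over 10300 genes. Same-numbered libraries correlated at 0.416 to 0.617 between siAPC CB and siAPC Ps and at 0.162 to 0.551 between siControl Ps and siAPC Ps, so numbers pair these groups. The ranges were -0.121 to 0.432 between the siControl fractions and -0.336 to 0.269 between the CB groups, where they do not. Figures were drawn with Python 3.11.15 and matplotlib 3.10.9. The statistical scripts were tested on simulated data.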

Additional observations from a re-analysis of the deposited data

Results flagged for a closer look

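Among 140 groups of 4 libraries over 35 named genes, 5 held 1 library far from the other 3 (a gap over the range above the 95% critical value of Dixon), and chance gives about 1 in 20. In siControl CB, Nusap1 stood at 1.231 log2 CPM in replicate 3, with the next library at 0.1384, and that library overlaps the siAPC CB values. Top2a stood at 3.078 in replicate 4 of siControl CB, with the next at 3.831. Gins1 stood at 1.252 in replicate 2 of siControl CB, with the next at 0.4835, and at 1.349 in replicate 3 of siAPC CB, with the next at 1.578. Cdt1 stood at 5.229 in replicate 1 of siControl Ps, with the next at 5.044. siControl CB replicate 3 is among the libraries that fell with GC content, and its part in the Nusap1 value was not tested.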

How the results depend on the processing

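Over the alternatives run, 0 of 89 results of single named genes changed sign, and other members were followed only through counts and medians. Of 2304 values of single named genes under an alternative, 2137 kept their side of the threshold, 152 lost a call and 15 gained one. Leaving out 1 library at a time gave 25 to 37 members higher in siAPC in CB (median 0.60 to 0.73) and 30 to 38 in Ps (median 0.66 to 0.86), with 0 lower in each. It gave 6 to 17 (CB) and 9 to 15 (Ps) S-phase members higher, 10 to 20 and 13 to 23 of the other S-phase genes, and 36 to 48 and 47 to 64 of the other mitosis genes. For Ps against CB it gave 5 to 13 higher and 4 to 10 lower in siControl (median 0.02 to 0.29), and 13 to 19 higher and 3 to 9 lower in siAPC (median 0.15 to 0.27). The interaction kept 0 calls with a median of -0.04 to 0.12.

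In siControl, Ps against CB gave 5 higher, 17 lower and a median of -0.047 with array weights, 2, 19 and -0.10 with scaling to total listed reads, and 5 higher and 14 lower when the 4 GC-trend libraries were left out. In siAPC it gave 11 higher and 15 lower with total reads, 10 higher after the GC and length correction, 4 lower without an intensity trend and 3 lower with quantile normalization. The replicate block gave 10 lower in siControl and 12 lower in siAPC, and moved the siRNA calls only from 34 to 33 in CB and from 38 to 37 in Ps; own-number libraries correlated best in 2 (siControl fractions), 3 (siAPC fractions), 1 (CB) and 3 (Ps) of 4. The interaction median was 0.29 with array weights, and the other S-phase genes higher in Ps numbered 33 with array weights and 36 with total reads. The cause of these shifts was not tested. The 2 planned count models were not run, and limma-voom with weights on the recovered reads was run in their place. RNAs of under 20 reads per library, such as Ttk and Ccne2, limit what depth can show.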
